A study of Drosophila melanogaster with 4 samples.

Results

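The host genes CadN2, Dscam4, tutl, PlexA and sif, which build and guide neuronal contacts, were followed through a table of circular RNAs from ribosome footprinting of fly heads. They were chosen by name: a row of the table was taken when its gene symbol, or the gene of its RefSeq accession, was one of the 5. This gave 32 of the 2563 listed circular RNAs (circRNAs), from 5 of 1191 host genes. The study comprised 4 libraries of ribosome-protected RNA from heads of Drosophila melanogaster, 2 labelled high detergent and 2 labelled low detergent after the lysis buffer. The labels give no strain, age, sex or genotype. Whole heads hold neurons, glia, photoreceptors, fat body and muscle, so no value below belongs to a single cell type. The table gives the authors' whole-number read count of each circRNA over all samples together. Columns of the separate libraries are named by head number. The protocol gives a lysis method for each head number but does not say which of them is the high and which the low detergent buffer, and no sample's own label carries a head number. Those columns were therefore not used, and no comparison between the buffers was made. The values therefore have no replicate error, and intervals on numbers of reads cover counting error only. Intervals of medians and of shares of circRNAs treat circRNAs as independent draws and are descriptive.

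A circRNA arises by back-splicing, in which the downstream end of an exon is joined to an upstream exon start, which closes the exons into a ring without free ends. Because a ring has no cap and no tail, a ribosome on it would have to start internally, and footprints that cross the back-splice are looked for as a sign of such translation. Long introns on both sides of the circularised exons are a known feature of many circRNAs, and fly neural tissue is known to be rich in circRNAs. Reads are taken here to be footprints over the back-splice, which the table does not state.

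CadN2, Dscam4 and tutl encode adhesion proteins of the cell surface. CadN2 is a classical cadherin, a calcium-dependent adhesion protein, and lies beside its paralogue CadN, which photoreceptor axons need to find their targets. Dscam4 belongs to the Dscam family of immunoglobulin and fibronectin-repeat proteins. tutl (turtle) is an immunoglobulin-superfamily protein that acts in dendrite self-avoidance and in the tiling of photoreceptor axons. PlexA is the receptor for transmembrane semaphorins in axon guidance. sif (still life) is not itself an adhesion protein: it is a cytoplasmic exchange factor of the synaptic terminal that activates the GTPase Rac, which remodels actin. No domain annotation or protein sequence was used here, so the exons are described by the codons they hold and not by domains.

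The rows were unequally divided among the genes. The table held 11 circRNAs of sif, 8 of CadN2, 6 of Dscam4, 4 of PlexA and 3 of tutl. Over all 1191 host genes the median was 1, and 657 genes (55.2%) had exactly 1. As many as the 11 of sif, or more, were listed for 15 genes (1.26%), as many as the 8 of CadN2 for 39 (3.27%), and as many as the 3 of tutl for 283 (23.8%). The names in the table were uneven too. Dscam4 appears as CG42330 and PlexA as plexA, whereas 6 rows of CadN2, 1 of PlexA and 1 of sif have no symbol and were placed by accession. These 8 of 32 rows without a symbol (25%) stood against 56 of the 2531 other rows (2.21%). CadN2 had more rows without a symbol than any other gene in the table, the next having 5.

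A footprint read was found on 1 of the 32 circRNAs (3.13%, exact binomial interval 0.0791% to 16.2%), beside 4.76% of all listed circRNAs. That circRNA is a tutl circle with 1 read (95% exact Poisson interval 0.0253 to 5.57), which is 0.435% of the 230 reads in the table (exact binomial interval 0.0110% to 2.40%). It lies on chromosome 2L from 4303336 to 4308859 in the dm3 genome build, on the plus strand of the annotation. The other 31 circRNAs had 0 reads each, and a count of 0 was taken to allow up to 3 reads, or 1.30% of the total, a one-sided limit. The two-sided exact Poisson interval for 0 reads reaches 3.69. The share is near the background of the table, and at this depth no circRNA of the 5 genes can be told from another by its reads. With a minimum of 2 reads, 0 of the 32 stood beside 26 of the other 2531 (1.03%). Positions take the lower coordinate as counted from 0, so 1 was added to it.

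To see which exons the circles hold, each span was looked up among the block lengths of its gene, where a block is 1 exon or a run of neighbouring exons of a transcript with the introns between them. Exactly 24 of 32 spans (75%) equalled a block, against 1926 of 2531 in the rest of the table (76.1%). All spans matched for sif (11 of 11), Dscam4 (6 of 6) and tutl (3 of 3), but only 3 of 8 did for CadN2 and 1 of 4 for PlexA. Among rows with a symbol, 22 of 24 spans of the 5 genes matched (91.7%), against 1909 of 2475 in the rest (77.1%). Among rows without a symbol 2 of 8 matched, against 17 of 56 in the rest (30.4%). A block was unique for 23 of the 24. The annotation is on a later genome release than the table, so only lengths were compared. Within CadN2, tutl, Dscam4 and sif, the start of every unique match lay at the same distance from the coordinate in the table. This was 0 bases for the 3 of CadN2 and the 3 of tutl, and 6900 bases for the 6 of Dscam4 and the 10 of sif. PlexA had 1 unique match, at -20626 bases, so its distance could not be compared with another. Among the matched circRNAs, 1 of 24 had a read (4.17%, exact interval 0.105% to 21.1%), beside 5.90% of all circRNAs at exon ends. Among the 8 that did not match, 0 had a read, and 7 of 605 such circRNAs in the rest of the table did (1.16%).

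**Figure D1:**
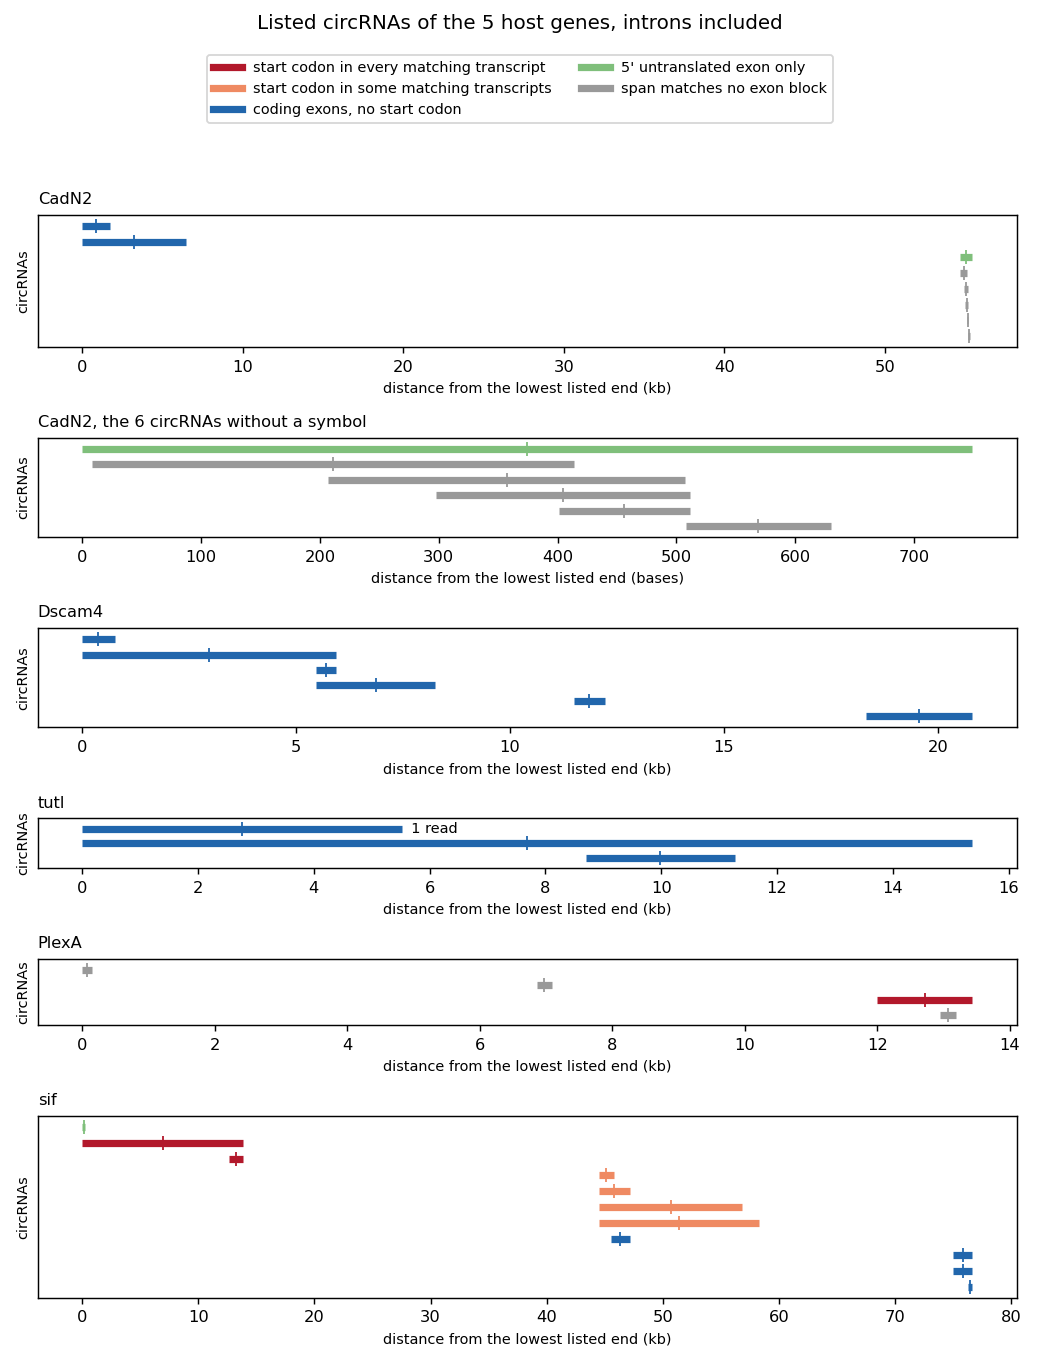
Each horizontal bar is a listed circRNA, drawn to scale by its distance from the lowest listed end of the gene, with the colour giving what the matched exons hold and a tick marking the middle. The second panel enlarges the CadN2 circles without a symbol, of which 5 lie inside the circle of 749 bp, and the tutl circle with 1 read is labelled.

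CadN2, on the minus strand of 2L, gave circles in 2 separate places of the gene. A pair in coding sequence began at the same coordinate, 17809238, which on this strand is the downstream end of the last exon held. The longer spanned 6480 bp to 17815717 and held exons 4 to 6 of the 15 in transcript CadN2-RD, or 425 bases once introns are removed. The shorter spanned 1701 bp to 17810938 and held exons 5 to 6, or 281 bases. They cover codons 18 to 159 and 66 to 159 of 1799, so 7.89% of the coding sequence is held by either. Upstream of the longer circle lay an intron of 11703 bp, and downstream of both an intron of 2732 bp.

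The other 6 CadN2 circles are the rows without a symbol, and they fell within 1 stretch of 749 bp from 17863937 to 17864685. The largest spans this whole stretch and equals exon 2 of CadN2-RD, an exon of the 5' untranslated region with an intron of 10542 bp before it and 36053 bp after it, the longest intron of the gene. The remaining 5 spanned 406, 300, 213, 122 and 110 bp, matched no exon block and lay inside that circle. The 213 and 110 bp circles both ended at 17864447, and the 300 bp circle ended 4 bases before them, at 17864443. A circle of PlexA was placed likewise inside a circle of 1 exon. Together these were 6 of the 8 unmatched circRNAs of the 5 genes, against 15 of 605 unmatched circRNAs in the rest of the table (2.48%). No test was made of this difference, since 5 of the 6 share 1 exon. The rest also includes genes with 1 listed circRNA or without a circle of 1 exon, whose circRNAs could not be placed in this way. All 8 CadN2 circles had 0 reads.

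Dscam4, on the plus strand of 3L, had 6 circles, each of coding exons without a start or stop codon. They held 2 to 5 exons and 267 to 585 bases after removal of introns. The circle from 8247965 to 8253890 (5926 bp) held exons 3 to 7 of 32 in transcript Dscam4-RI. It shared its first end with a circle of exons 3 to 5 (754 bp) and its second end with a circle of exons 6 to 7 (469 bp, from 8253422). These smaller circles together hold the same 5 exons as the larger. Another circle began at 8253422 as well and ran on through exon 8 to 8256219 (2798 bp). The remaining 2 stood alone, with exons 10 to 12 (727 bp, from 8259447 to 8260173) and exons 19 to 21 (2492 bp, from 8266276 to 8268767). Introns next to the 4 linked circles were 2163 to 5913 bp long, whereas the circle of exons 10 to 12 had 362 bp upstream and 1922 bp downstream, and the circle of exons 19 to 21 had 241 bp upstream and at least 319 bp downstream. The 6 circles reach from codon 18 to codon 948 of 1935 and hold 26.8% of the codons, all before the middle of the coding sequence. All 6 had 0 reads.

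The 3 circles of tutl, on the plus strand of 2L, were the largest of the 5 genes by median, at 5524 bp. The circle with the read held exons 5 to 9 of 13 in transcript tutl-RJ, which are codons 174 to 755 of 1536, or 37.8% of the coding sequence. Its exons sum to 1744 bases in 8 of the 9 transcripts that match and to 1819 in the other. It held no start codon in any of the 9. A second circle began at the same end, 4303336, and ran to 4318708, a span of 15373 bp as long as or longer than 96.4% of those in the table. It held exons 5 to 12 in tutl-RJ, codons 174 to 959, and had 0 reads. The third circle, from 4312028 to 4314615 (2588 bp, 0 reads), held exons 10 to 11 and lay inside the second. Its first codon, 755, is the last of the circle with the read, so in tutl-RJ the exons of these smaller circles follow each other directly. A shared upstream intron of 4146 bp preceded both circles that begin at 4303336. Together the 3 circles hold 51.2% of the codons of tutl-RJ, the highest share of the 5 genes.

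PlexA, on the minus strand of chromosome 4, had 4 circles with separate ends. The largest, from 1042868 to 1044306 (1439 bp), equalled exon 2 of 10 in PlexA-RA and in PlexA-RF. This exon holds the start codon and codons 1 to 410 of 1945, which is 21.1% of the coding sequence in PlexA-RA, and is flanked by at least 3089 bp of intron upstream and 2226 bp downstream. The circle from 1043817 to 1044066 (250 bp) lay inside it. The other 2, from 1037733 to 1037955 (223 bp) and from 1030874 to 1031027 (154 bp, without a symbol), matched no exon block. All 4 had 0 reads.

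sif, on the plus strand of 3L, had 11 circles in 3 clusters along 76666 bp, and each shared an end with another. The first cluster lies at the start of the gene. A circle of 253 bp from 5652529 equalled an exon of the 5' untranslated region. A circle of 13837 bp began at the same end and ran to 5666365, with exons 2 to 7 of 35 in sif-RI, the start codon and codons 1 to 207 of 2072. A circle of 1211 bp, from 5665155, ended at the same 5666365 and equalled 1 exon of sif-RP that holds another annotated start codon.

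The second sif cluster fans out from 1 shared end. Circles of 1317, 2649, 12355 and 13814 bp all began at 5697025 and held 2, 3, 4 and 5 exons, always starting with exon 15 of sif-RI. Their exons sum to 426, 558, 741 and 942 bases, each a multiple of 3, and in sif-RI each starts on a whole codon, 799, and reaches codon 940, 984, 1045 or 1112. All 14 sif transcripts contain these exons. In 2 of them, sif-RL and sif-RR, the shared first exon holds the start codon of a shorter protein, and in the other 12 it lies within the coding sequence. The intron before this exon is 26976 bp in most transcripts, the longest of the gene. It is 4900 bp in sif-RA, sif-RC and sif-RK, 24737 bp in sif-RL and 18348 bp in sif-RR. Another circle of the cluster, from 5698062 to 5699673 (1612 bp), held 2 exons with 412 bases and shared its second end with the circle of 2649 bp.

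The third sif cluster converges on a shared second end at 5729194. Circles of 1656, 1629 and 369 bp began at 5727539, 5727566 and 5728826. The circle of 369 bp held 2 exons (304 bases) and the circle of 1629 bp 3 exons (448 bases). The span of 1656 bp matched 2 different blocks and was left unassigned. At the distance of 6900 bases shared by all other sif circles, it would be the same 3 exons with a first exon that begins 27 bases earlier. In sif-RI the matched circles of this cluster hold codons 1406 to 1555. All sif circles placed in sif-RI together hold 32.4% of its codons. A small gene of 54 codons, CG46320, is annotated over the same exons. Of the 11 sif spans 8 also matched its blocks, and none of these held its start or stop codon. All 11 sif circles had 0 reads.

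**Figure D2:**
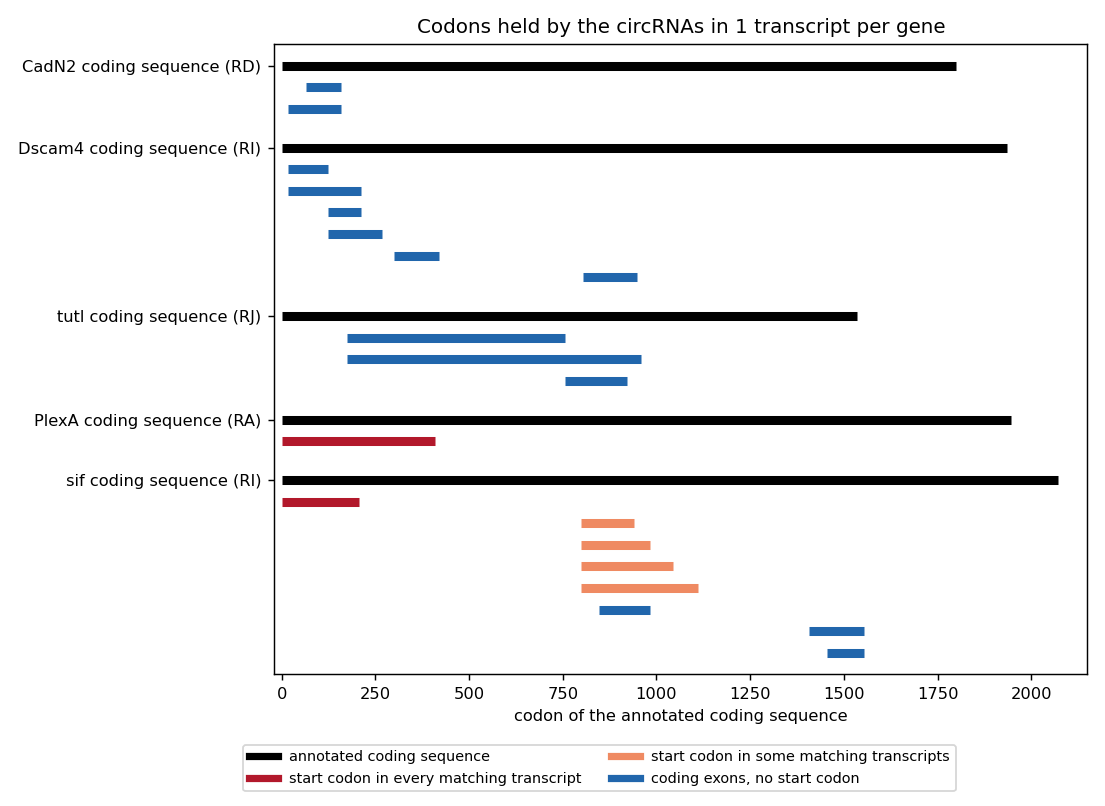
Black bars are the annotated coding sequence of the transcript that matches most circles of each gene, and coloured bars are the codons held by each circle. Circles of CadN2 end by codon 159 and that of PlexA by codon 410, those of Dscam4 and tutl by codons 948 and 959, and those of sif reach codon 1555.

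Across the 5 genes, 21 of 32 circles shared an end with another circle of their gene (65.6%), against 1146 of 1874 circles in the rest of the table from genes with at least 2 (61.2%). By gene these were 11 of 11 for sif, 4 of 6 for Dscam4, 2 of 3 for tutl, 4 of 8 for CadN2 and 0 of 4 for PlexA. The end used most was 5697025 of sif, with 4 circles. Of the 32, 19 lay wholly inside another circle of the same gene (59.4%), against 789 of 1874 (42.1%). Of these 19, 5 are the CadN2 circles inside 1 exon. Genes were not matched by their number of circles in either comparison. No row of another gene overlapped the stretches covered by the circles of these 5 genes. circRNAs of 1 gene share exons and are not independent, so these shares are given as descriptions without a test.

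The median span of the 32 was 1378 bp (order-statistic interval 406 to 2588), against 1042 bp (968 to 1105) in the rest of the table. Without the 11 sif circles the median of the 5 genes' circles was 749 bp. Spans ran from 110 bp in CadN2 to 15373 bp in tutl. Medians by gene were 5524 bp for tutl, 1629 bp for sif, 1623 bp for Dscam4, 353 bp for CadN2 and 236.5 bp for PlexA. Matched circles had a median of 1678.5 bp and unmatched ones of 218 bp, with the longest unmatched circle at 406 bp. In the rest of the table these medians were 1281.5 bp and 281 bp. With introns removed, the 23 uniquely matched circles had a median of 448 bases (interval 412 to 749), against 643 bases (618 to 674) for 1895 circles of the rest, and a median of 3 exons against 2. The median of the 5 genes was thus higher on the genome and lower in exon sequence, and in both measures its interval overlapped that of the rest. The shortest annotated intron upstream had a median of 4146 bp (interval 2829 to 4900), against 2733 bp (2529 to 2994) in the rest. Downstream the shortest had a median of 2226 bp (1889 to 3168), against 2004 bp (1789 to 2189). The upper quartiles went the other way, at 4900 against 7219 bp upstream and 3573 against 5529.5 bp downstream. The 4900 bp is the shortest intron before the 4 sif circles that begin at 5697025, which is 26976 bp in most transcripts. The upstream quartile thus depends on the choice of the shortest intron. Several circles with a shared end have the same intron, so these values repeat.

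**Figure D3:**
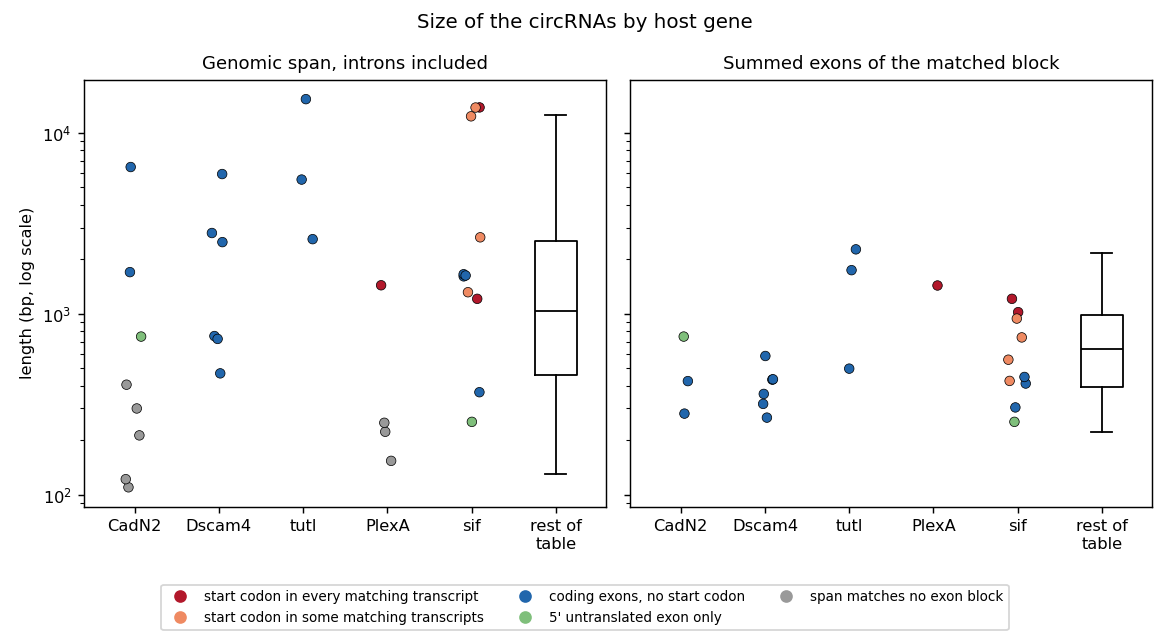
Points are circRNAs by host gene on a logarithmic axis, with genomic span on the left and summed exons of uniquely matched circles on the right, and the box shows the rest of the table (median, quartiles, whiskers from the 5th to the 95th percentile). The tutl circles span 2588 to 15373 bp and the 3 unmatched PlexA circles 154 to 250 bp.

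A start codon lay in 7 of the 23 uniquely matched circles (30.4%), against 717 of 1894 in the rest of the table (37.9%). These were 6 of sif and the 1 of PlexA, and none of the 3 CadN2, 6 Dscam4 or 3 tutl circles held one. Only 3 of the 7 held it in every matching transcript, the PlexA circle and the sif circles of 13837 and 1211 bp. No circle held a stop codon (0 of 23), against 61 of 1894. Circles of untranslated sequence alone were 2 of 23, from CadN2 and sif, against 48 of 1894. Of the 7 with a start codon 0 had a read, against 57 of 717 in the rest (7.95%), and of the 16 without 1 had a read, against 55 of 1177 (4.67%). With 7 and 16 circles and 1 read, a difference between these was not detectable at this depth. The middle of the coding bases held lay at a median of 30.2% of the coding sequence in 21 circles of the 5 genes, from 0.330% to 55.7%, against 29.6% in 1846 circles of the rest. Of 12 circles wholly coding in every matching transcript and with 1 possible exon sum, 5 had a sum that is a multiple of 3. These were 4 of Dscam4 and the smallest tutl circle, against 332 of 881 in the rest (37.7%). The 4 sif circles that begin at 5697025, all with such a sum, were not among the 12. Part of their first exon is untranslated in sif-RL and sif-RR.

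**Figure D4:**
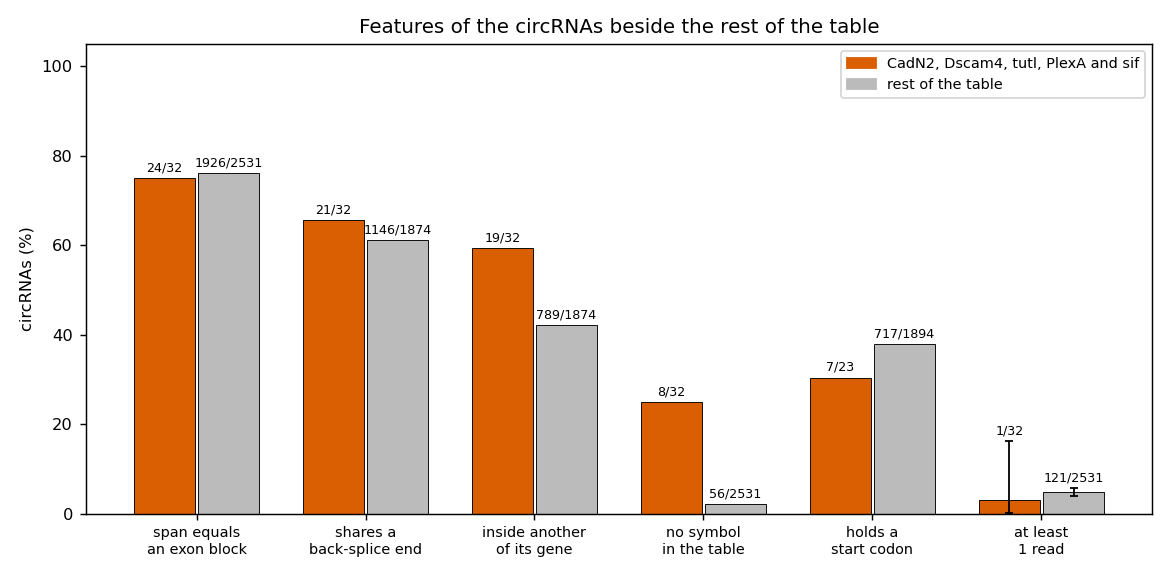
Bars give the share of circRNAs with each feature for the 5 genes (orange) and for the rest of the table (grey), with counts above, and exact binomial intervals for the share with a read. The bars for exon blocks stand at 75% and 76.1%, and those for rows without a symbol at 25% and 2.21%.

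Related genes were looked up in family lists. Of 16 other cadherin genes, 5 were listed with 8 circRNAs, all at exon ends and none sharing an end. CadN had 4 of these circles, with spans of 1454 to 44798 bp and 0 reads. Of 78 other immunoglobulin-superfamily recognition genes, 43 were listed with 96 circRNAs, of which 2 had a read (2.08%), beside the 4.76% of the whole table. The reads were 1 each on a circle of beat-Vc and on a circle of sns, an adhesion protein known for muscle cell fusion. The genes of this list with 4 or more circles were DIP-alpha with 6, side-II and side-VI with 5 each, and Dscam1, dpr1, dpr11, klg and side-III with 4 each, all at 0 reads. Dscam2 and Dscam3 had 1 circle each.

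Among 9 other plexin and semaphorin genes, 4 were listed with 9 circRNAs. One of the 3 circles of Sema2b, a secreted semaphorin, had 1 read. Sema1a, a ligand of PlexA, had 3 circles and Mical, the enzyme that binds PlexA and takes actin apart, had 2, all at 0 reads. Among 17 other Rac exchange factor and Rac pathway genes, 5 were listed with 9 circRNAs. trio, a Rac exchange factor in axon guidance, had 4 of them, with 1 read on 1 circle. The lists thus held 4 circles with a read, each with 1 read. By list these were 0 of 8 for cadherins and 2 of 96 for the immunoglobulin superfamily. Plexins with semaphorins, and the Rac list, had 1 of 9 each. Over the whole table the share was 4.76%, and single reads on so few circles do not set any list apart from it.

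Other host genes with the same number of circRNAs and the nearest median span were found by distance on the log2 scale. For sif these were CG17816 (1887 bp, 11 circles) and scrib (2302 bp), among 4 genes with 11. For CadN2 they were sm (566 bp) and LanA (210 bp), for Dscam4 sdt (1862 bp) and Mbs (1998.5 bp), for tutl stops (4922 bp) and sv (6524 bp), and for PlexA eEF1gamma (231.5 bp) and RpS3A (187.5 bp). All 10 of these genes had 0 reads. Ends were shared by 10 of the 11 circles of CG17816 and 9 of the 11 of scrib, beside all 11 of sif, and by 7 of the 8 of sm and 0 of the 8 of LanA, beside 4 of 8 for CadN2.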

How the data were processed

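Per the labels' protocols, heads 3 and 4 were lysed in a Triton X-100 buffer and heads 1 and 2 by an earlier published method. The submitters' processing notes name cutadapt 1.9.1 and the dm3 build. The aligner, the caller of circRNAs and any read minimum were not given in the sources used here. The authors deposited 1 table, with a whole-number count per circRNA over all samples, not normalized. Its 4 columns per library are named by head number, which no sample's own label carries, and were not used. Per the file headers, ribosomal RNA reads had been removed, and the total number of reads per library was not analysed here.

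Accessions of 2530 rows (98.7%) were matched to current symbols through NCBI's release 6 gene table, used for names only. Where it matched, the accession decided the gene. Exon blocks came from Ensembl release 115, matched by exact length with no conversion of coordinates. Flanking introns and exon sums are the shortest over matching transcripts. The exon sums assume that inner introns are spliced out, which the table does not show. Overlapping genes cannot be told apart. Intervals are 95% exact Poisson, exact binomial (Clopper-Pearson) or order-statistic. A count of 0 was taken to allow up to 3 reads. No test was made, since the column used is a pooled count. The code for matching was checked on blocks drawn from the same annotation, and that for end sharing on planted ends. This checks the code only. How often an unrelated span equals a block in length is not given here.

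The genes, family lists and the rule for named genes were chosen with earlier results of these data known. The rule named the 5 genes, their circRNAs with reads, the shortest and longest spans, the most shared ends, family genes with 4 circRNAs or a read, and the 2 nearest genes by number and span. Others are named by role. Of the Rac list, 2 names were not found. Of markers of cell types in the head, the table listed 1 of 3 for neurons, 2 of 3 for glia, 1 of 3 for photoreceptors, 1 of 3 for fat body and 3 of 3 for muscle. A gene is listed only if it has a circRNA, so these counts do not measure the cells present. Python 3.11.15, pandas 2.3.3, numpy 2.4.6, scipy 1.17.1 and matplotlib 3.10.9 were used.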

Additional observations from a re-analysis of the deposited data

How the results depend on the processing

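Of 22 alternatives over 7 results, 19 stayed within 1.5 times the count or within the interval of the median. For the median span this interval is wide, 406 to 2588 bp, so the criterion is loose. The fall to 749 bp without sif counted as unchanged under it. Taking only symbols spelled as the current ones, an alternative chosen after seeing the data, left 15 of the 32 circRNAs, because rows named CG42330, plexA or without a symbol drop out. With at least 2 reads, 0 circRNAs of the 5 genes counted, in place of 1. Counting a start codon only where every matching transcript has it gave 3 circles in place of 7, since 4 sif circles hold it in 2 of 14 transcripts. The median span of 1378 bp ranged from 749 bp without sif to 1678.5 bp with exon-end spans alone. No paired analysis was possible because the single-library columns could not be matched to labelled samples and were not used, and the pooled counts carry no replicate number. No library was left out, since those columns were not read. Leaving 1 out, or placing the tutl read in a column, would not have needed its buffer to be known. With 230 reads in all, depth limits every statement on reads.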
